A study of Mus musculus with 5 samples.

Results

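The IL-6 family genes described here are 4 receptor genes, Il6ra, Il6st, Lifr and Osmr, and 4 ligand genes, Il6, Osm, Lif and Il27, out of 22225 protein-coding genes. The series measured by ChIP-seq (chromatin immunoprecipitation and sequencing) where the transcription factor Runx3 sat on the genome of D1, a dendritic cell line grown from mouse spleen. There were 3 libraries precipitated with a polyclonal rabbit antibody against mouse Runx3 (Runx3 IP) and 2 precipitated with non-immune rabbit serum (NIS IP). All came from this 1 line, fixed in 1% formaldehyde with no other treatment named, and the serum served as the control in place of cells that lack Runx3. The methods speak of 2 replicate experiments. Expression was not analysed here, so the cell type was not checked against markers. The authors made 1 list of 13014 bound regions (peaks) from 8689867 Runx3 tags and 4946605 NIS tags, so no value for a single library was analysed here and no spread between replicates could be measured. The genes were chosen by the peaks of this list: a peak belongs to a gene when its summit, the position of highest signal, lies in the gene's regulatory domain. That domain covers 5 kb before and 1 kb after the gene's transcription start site (TSS) and extends on either side until it meets the like stretch of a neighbouring gene, by 1 Mb at most. The number and strength of the peaks are therefore given as a description, without a test.

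Cytokines of this family signal through receptor complexes that contain gp130, the product of Il6st. IL-6 first binds its own receptor subunit, encoded by Il6ra, LIF pairs gp130 with the product of Lifr, and oncostatin M, the product of Osm, pairs it with the product of Osmr in mice. Il27 encodes the p28 subunit of IL-27, whose receptor joins gp130 with the product of Il27ra. Receptor engagement activates Janus kinases and STAT3, and SOCS3 shuts the signal down. Dendritic cells both secrete IL-6 family cytokines and respond to them.

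All 4 receptor genes had Runx3 peaks, against 1 of the 4 ligand genes, while 43.1% of all protein-coding genes had at least 1 peak. The receptor domains held 14 peaks in 1108 kb (1.26 per 100 kb) and the ligand domains held 2 peaks in 571 kb (0.350 per 100 kb), where the whole list held 0.509 per 100 kb of sequenced genome. Il6st and Lifr had 5 peaks each, Il6ra had 4 and Osmr had 3, against 2 for Lif and none for Il6, Osm and Il27. Per 100 kb of its own domain, Il6ra had 3.07 peaks, Il6st 1.72, Lifr 0.965 and Osmr 0.723. Lif, with a domain of 203 kb, had 0.987, so the bound ligand gene was denser in peaks than Lifr and Osmr. Neighbouring genes can share a peak, and Osmr and Lifr lie next to each other, so the 3 peaks of Osmr were all peaks of Lifr as well. Domain lengths differ along with this contrast. The receptor domains were 130 kb for Il6ra, 290 kb for Il6st, 415 kb for Osmr and 518 kb for Lifr. A peak was present in 50.5% of all genes with domains of 100 to 200 kb and 54.9% of those from 400 kb upwards. Osm and Il27 have short domains of 33.3 and 35.2 kb, and 31.6% of all genes with domains of 25 to 50 kb had a peak, against 56.8% of genes with domains of 200 to 400 kb, the range that holds the 315 kb domain of Il6.

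**Figure D1:**
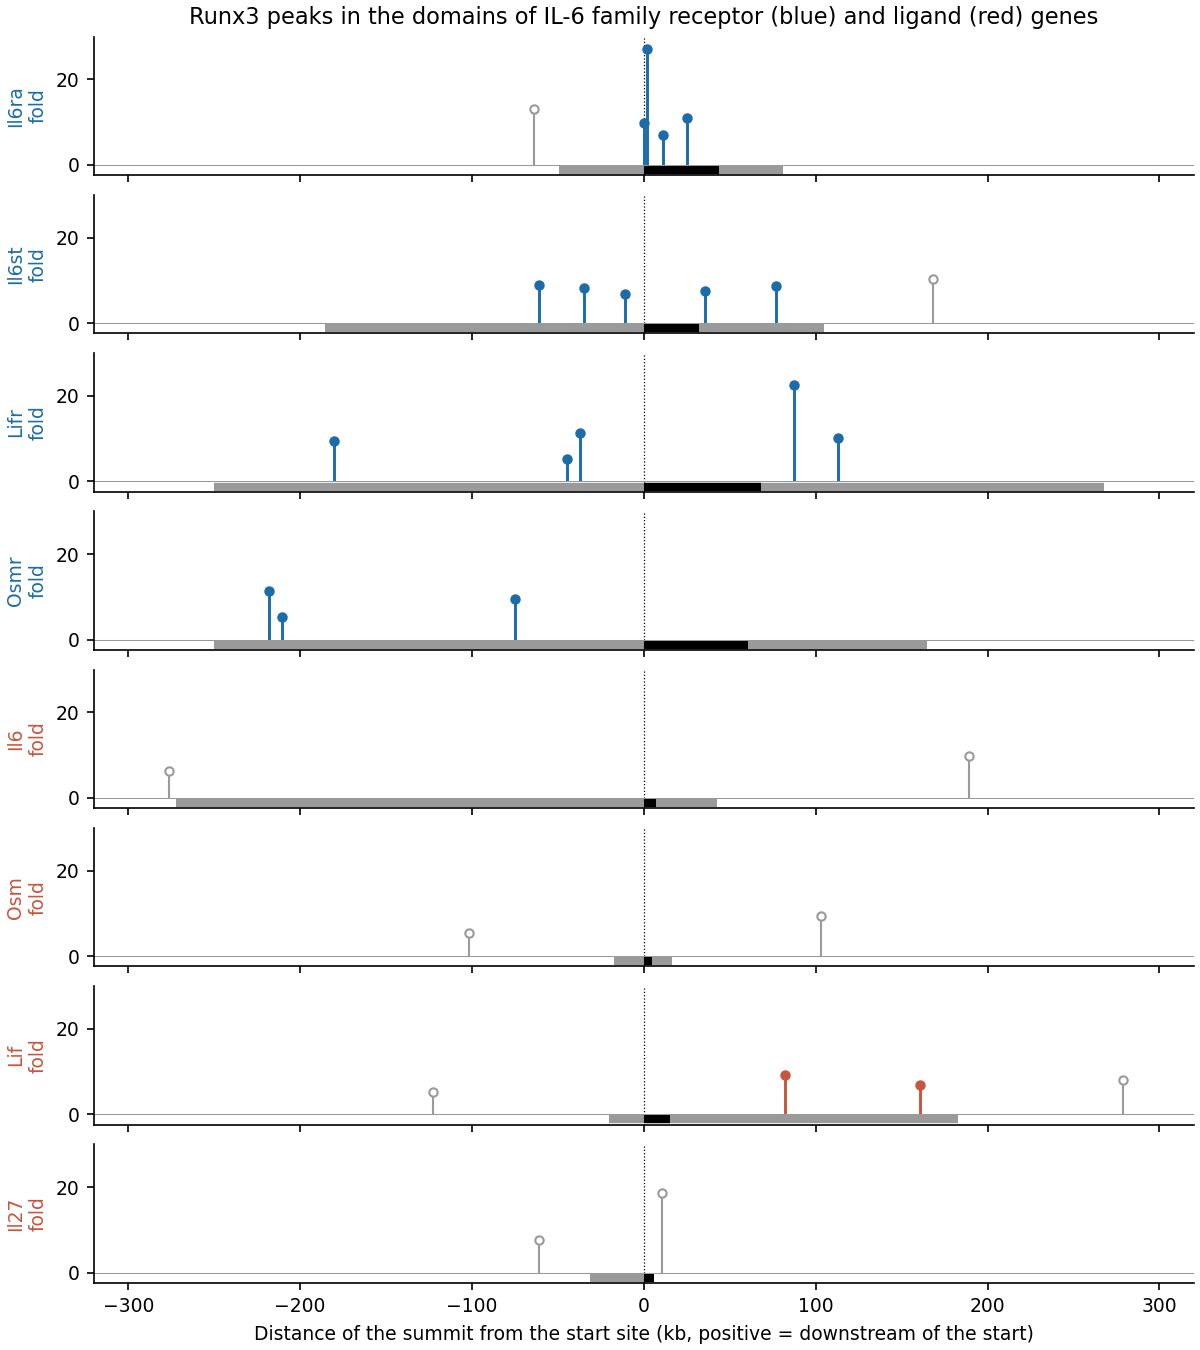
Position and fold enrichment of every Runx3 peak in the domains of the 4 receptor genes (blue, upper panels) and the 4 ligand genes (red, lower panels), against the distance of the summit from the TSS in kb. Grey bars are domains, black bars the gene bodies, and open grey symbols the nearest peak outside the domain on each side where it lies within the plotted range. Il6ra has its peaks at and downstream of its TSS, Il6st and Lifr on both sides, Osmr only upstream, and Il6, Osm and Il27 have no filled symbol.

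The sequence under the strongest peak of each bound gene is shown, with that under the only promoter peak among the 8 genes. RUNX proteins recognise the short core TGTGGT or TGCGGT, and these peaks differ in whether they hold it. Each stretch is 101 bases of mm9, centred on the summit, and is given 5′ to 3′ on the plus strand. Capitals mark the core on either strand, so that a core on the minus strand reads ACCACA.
Il6ra, intron, chr3:89715351-89715451: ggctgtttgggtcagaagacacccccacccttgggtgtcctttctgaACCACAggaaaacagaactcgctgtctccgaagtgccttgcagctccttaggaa
Il6ra, promoter, chr3:89717141-89717241: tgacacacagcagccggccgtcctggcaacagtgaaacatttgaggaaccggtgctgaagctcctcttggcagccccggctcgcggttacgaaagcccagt
Lifr, downstream, chr15:7167169-7167269: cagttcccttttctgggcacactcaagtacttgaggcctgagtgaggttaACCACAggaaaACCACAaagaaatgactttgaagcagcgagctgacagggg
Lifr and Osmr, between the genes, chr15:7042384-7042484: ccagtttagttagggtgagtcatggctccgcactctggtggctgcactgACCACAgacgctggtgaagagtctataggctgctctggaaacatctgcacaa
Il6st, upstream, chr13:113203965-113204065: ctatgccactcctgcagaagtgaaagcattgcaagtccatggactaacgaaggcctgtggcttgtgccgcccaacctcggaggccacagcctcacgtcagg
Lif, downstream, chr11:4239382-4239482: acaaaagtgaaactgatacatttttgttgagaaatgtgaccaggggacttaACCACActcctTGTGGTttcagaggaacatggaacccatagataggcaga
The intron peak of Il6ra and the peak between Lifr and Osmr each held 1 core in this stretch, the peaks downstream of Lifr and Lif held 2, and the promoter peak of Il6ra and the upstream peak of Il6st held none.

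Il6ra, the gene of the IL-6 binding subunit, carried the strongest peak of the family. Its summit was 1.68 kb downstream of the TSS in an intron (chr3:89715190-89715518, a width of 329 bp), and 61 Runx3 fragments covered it (95% exact Poisson interval 46.7 to 78.4, counting error only). Its fold enrichment, the authors' ratio of scaled Runx3 pileup plus 1 to local NIS background plus 1, was 27.2 and ranked at 53 of 13014 peaks. The median peak of the list had 19 fragments and a fold of 8.12. The NIS background for this summit, calculated back from the fold, was 0.315, equal to the average NIS coverage of the genome. Whether fewer NIS fragments covered the summit itself cannot be read from this value. Only 0.432% of all genes had a strongest peak at least this high.

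The other peaks of Il6ra were closer to the middle of the list. One peak stood 0.107 kb upstream of the TSS (chr3:89717106-89717302) with 21 fragments and a fold of 9.85, and it was the only peak of the 16 within 1 kb of a member's TSS. Both remaining peaks were in introns, 10.9 and 25.4 kb downstream of the TSS, with 23 and 29 fragments and folds of 7.05 and 10.98. The domains of Il6ra and She, an adaptor protein gene, shared the 3 intron peaks, and only the promoter peak belonged to Il6ra alone. Il6ra was thus the one gene of the 8 with a peak in its own body or at its promoter.

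Il6st, the gene of gp130, had as many peaks as Lifr but none above a fold of 9. Upstream, its peaks lay 61.2, 34.8 and 10.9 kb from the TSS with 19, 17 and 14 fragments and folds of 8.99, 8.12 and 6.79, all between genes and in the domain of Ankrd55 as well. Downstream, peaks at 35.6 and 77.1 kb had 18 and 19 fragments and folds of 7.62 and 8.71. These were shared with Il31ra, the gene of an IL-31 receptor subunit, and the farther one was in an Il31ra intron. The 5 counts of fragments ran from 14 to 19 and their intervals overlapped throughout. The peak at 10.9 kb upstream had a GC content of 75.1% within 100 bp of its summit, the highest of the 16 peaks, where the median over all peaks was 50.2%. No transcript of any kind in the annotation started closer to that summit than Il6st itself.

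Lifr, which encodes the LIF receptor subunit that pairs with gp130, had the second strongest peak of the family. It stood 87.7 kb downstream of the TSS (chr15:7167088-7167323) in an intron of Egflam, the gene of an extracellular matrix protein, with 57 fragments (43.2 to 73.9) and a fold of 22.7, rank 143 of the list. A further Egflam intron peak at 112.8 kb (chr15:7192237-7192445) had 52 fragments (38.8 to 68.2) but a fold of only 10.2. The NIS background was 2.0 there and 0.476 at the stronger peak, and the fold is calculated against that background. Counting intervals of the 3 tallest peaks of the family, at Il6ra and Lifr, overlapped. A shorter Lifr transcript starts within the gene, and the stronger peak was 62.9 kb downstream of that start. Among transcripts of every kind, those starting nearest to the 2 summits were noncoding transcripts of Egflam, 5.85 kb from the stronger peak and 12.4 kb from the other. Both Egflam intron peaks were in the domain of Egflam as well. The rest of the Lifr peaks were shared with Osmr, so no peak belonged to Lifr alone. Of the 14 receptor peaks, 13 were in more than 1 domain.

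Osmr, the gene of the oncostatin M receptor subunit, and Lifr are transcribed away from each other, and their 3 common peaks lay between them. The tallest (chr15:7042343-7042623) had 38 fragments (26.9 to 52.2) and a fold of 11.3, and its NIS background was 1.0. It was 37.1 kb upstream of the Lifr TSS and 218 kb upstream of the Osmr TSS. The next was nearer to Osmr, 75.0 kb upstream of its TSS and 180 kb upstream of Lifr (chr15:6899245-6899384), with 23 fragments and a fold of 9.55. The weakest peak of the family was also here, 44.4 kb upstream of Lifr, with 12 fragments, a fold of 5.31 and a −log10 q of 2.97, while the lowest −log10 q in the list was 1.42. When each peak was given to the nearest TSS alone, Osmr kept 1 peak and Lifr kept 4.

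**Figure D2:**
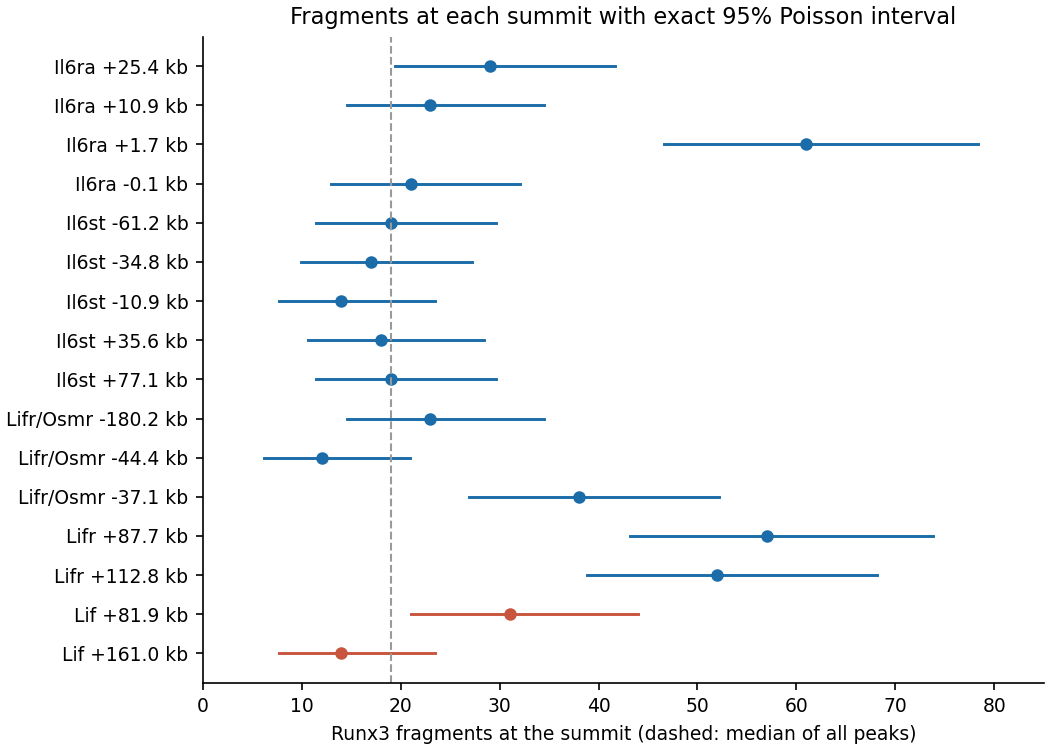
Runx3 fragments at the summit of each of the 16 peaks, with the exact 95% Poisson interval as a line and the median of all 13014 peaks (19) as a dashed line. Rows are named by gene and distance from the TSS, which is that of Lifr where Lifr and Osmr share a peak. The 3 highest points are the Il6ra intron peak (61) and the Lifr peaks at 87.7 and 112.8 kb (57 and 52), and all 5 Il6st peaks have intervals that hold the dashed line.

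Lif, the gene of leukaemia inhibitory factor, was the only bound ligand gene, and both of its peaks were far from the gene. The stronger one was 81.9 kb downstream of the TSS in intergenic sequence (chr11:4239334-4239538), with 31 fragments (21.1 to 44.0), a fold of 9.32 and an NIS background of 1.0. The other was 161 kb downstream in an intron of Hormad2, a meiosis gene, with 14 fragments and a fold of 6.82. Hormad2 shared both peaks, and the second was 7.0 kb from a Hormad2 TSS. Ordered by the strongest peak, the bound genes ran Il6ra, Lifr, Osmr, Lif and Il6st with folds of 27.2, 22.7, 11.3, 9.32 and 8.99, and the fragment intervals of every pair of neighbours in this order overlapped.

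The 3 ligand genes without a peak differed in how far the nearest summit was. For Il6 the domain of 315 kb held none. Upstream, the nearest summit, of a peak of fold 6.39 in an intron of Dnajb6, a chaperone gene, lay 276 kb from the TSS and 3.96 kb outside the domain. The summit nearest to Il6 is closer than this, on the downstream side and also outside the domain, and is not reported here. For Osm, which lies beside Lif, the nearest summits were 102 kb upstream (fold 5.34) and 103 kb downstream, and the downstream one is the stronger peak of Lif. Il27 was different. A peak with 41 fragments, a fold of 18.5 and 1 RUNX core (chr7:133728033-133728305) was 10.3 kb downstream of its TSS, over an exon of the lysosomal gene Cln3, but 6.21 kb outside the Il27 domain and in that of Apobr. Among the peaks counted above, the one closest to the edge of a domain was the second Lif peak, 21.6 kb inside it. By distance alone, with summits counted within 100 kb of the TSS, all 4 receptor genes and 2 of the 4 ligand genes (Il27 with 4 peaks and Lif with 1) had a peak, where 64.3% of all genes did. Within 25 kb, the genes with a peak were Il6ra (3 peaks) and Il6st (1 peak) among receptors and Il27 (2 peaks) among ligands, where 37.1% of all genes had one. Within 250 kb, Il6ra had 9 peaks, Il6st 7, Lifr 5 and Osmr 3, and Il27 had 9, Osm 6 and Lif 5. Osm and Lif lie side by side, as do Lifr and Osmr, so a summit near both genes of a pair is counted for each. At this distance the receptor and ligand counts overlapped, and 79.7% of all genes had a peak. Il6 is not given at 250 kb. These distances were added after the data were seen.

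The core sequence itself was about as common in both sets of domains. Receptor domains held 1009 RUNX cores, 0.910 per kb, and ligand domains 516, 0.904 per kb, where the genome held 0.835 per kb. GC content was 43.8% and 43.6%, where the genome had 41.8%. In relation to these cores the receptor domains had 13.9 peaks per 1000 cores and the ligand domains 3.88, where the genome had 6.10. These values use the same peaks as the contrast itself, and the ligand value rests on the 2 peaks of Lif. The part of core number in the contrast was not tested.

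RUNX cores at the summits were not part of the rule. Of the 16 peaks, 11 had a core within 100 bp of the summit, or 68.8% (95% Wilson interval 44.4 to 85.8), where 64.2% of all peaks did. In equally wide windows placed 1 kb to the left and right of the summits, 4 and 3 of the 16 held a core, or 25% and 18.8%, where the shares over all peaks were 17.6% and 16.9%. Among receptor peaks 9 of 14 had a core (64.3%, interval 38.8 to 83.7), and both ligand peaks did. The peaks without one were the promoter and the 25.4 kb intron peak of Il6ra, the 61.2 kb upstream peak of Il6st, and the peaks 180 and 44.4 kb upstream of Lifr. At the Il6ra intron, the Lifr peak at 87.7 kb, the common Lifr and Osmr peak of fold 11.3 and the stronger Lif peak, the nearest core began within 3 bp of the summit. More than 1 core was present in 6 of the 16 peaks (37.5%), where 17.4% of all peaks had more than 1.

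**Figure D3:**
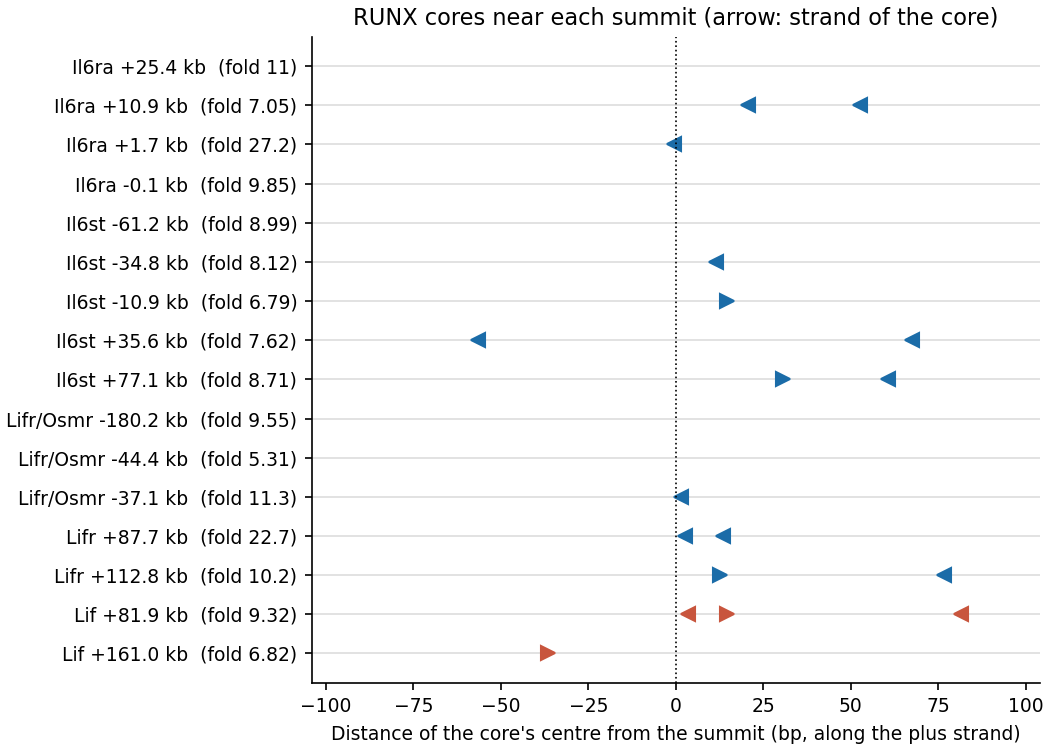
Position of each RUNX core (TGTGGT or TGCGGT) within 100 bp of the 16 summits, in bp along the plus strand, with arrows for the strand of the core and rows named as in the plot of fragments. Of the 16 rows, 11 hold at least 1 arrow and 6 hold more than 1. The Lifr row of fold 22.7 and the Lif row of fold 9.32 each hold 2 arrows 11 bp apart.

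Other motifs were searched on both strands in the same windows, as a description with few peaks. GAGGAAGT, recognised by the myeloid factor PU.1, was present in 3 of the 16 peaks (18.8%), where 10.9% of all peaks held it: the Il6ra intron peak of fold 27.2, the Il6st peak 35.6 kb downstream and the Lifr peak at 112.8 kb. The STAT motif TTCNNNGAA was present in 4 (25%), where 9.06% of all peaks held it. The 4 were the Il6ra peak at 10.9 kb, the same Il6st and Lifr peaks, and the weakest peak upstream of Lifr. CAGAC, the SMAD motif, was present in 4 (25%), where 40.1% of all peaks held it, and 3 of those 4 were in Il6ra. The AP-1 motif TGANTCA (1 peak, where 12.2% of all peaks held it), the C/EBP motif TTGCNNAA (1 peak, 8.30%) and the interferon response motif GAAANNGAA (no peak, 7.26%) were rarer.

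**Figure D4:**
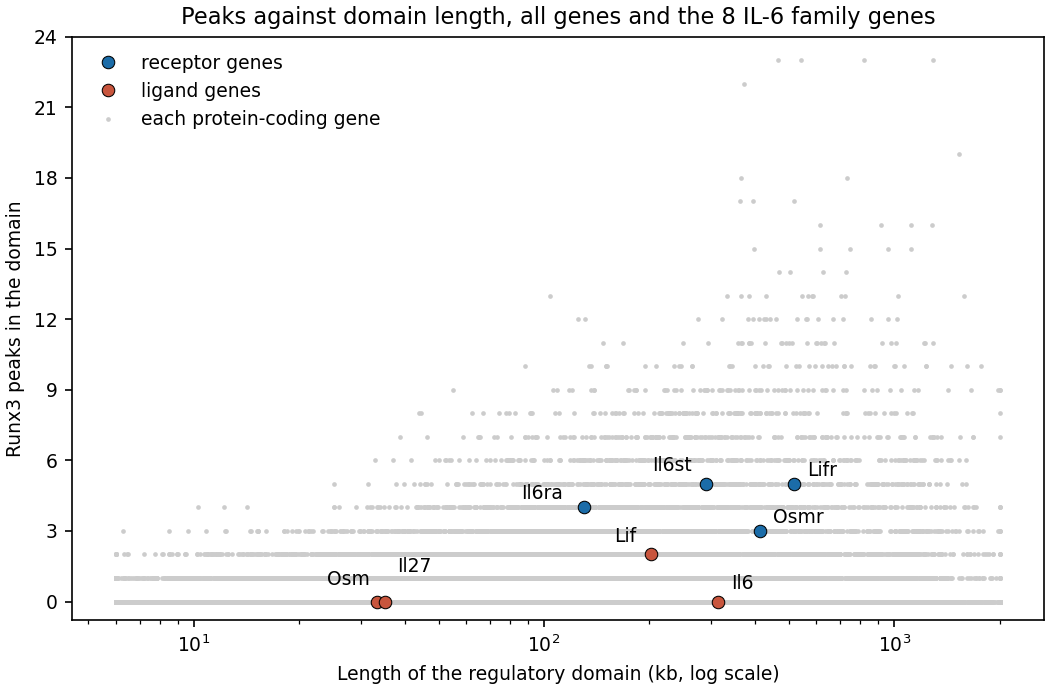
Number of Runx3 peaks against the length of the regulatory domain (kb, log scale) for the 4 receptor genes (blue), the 4 ligand genes (red) and each of 22225 protein-coding genes (grey). Il6 has a domain of 315 kb and no peak, close in length to Il6st (290.2 kb) with 5, while Osm and Il27 sit at the short end of the 8 with 33.3 and 35.2 kb.

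Of the remaining genes of the family, 2 of 4 receptor genes and 3 of 7 ligand genes or ligand subunits had a peak, where 43.1% of all genes did. Il31ra had 3 peaks, of which 2 were peaks of Il6st, and its strongest had a fold of 10.39 in an intron of Ddx4 (1 core). Cntfr, the ciliary neurotrophic factor receptor gene, had 2 (best fold 10.3, 107 kb from the TSS in a Dnaic1 intron, 1 core). Il27ra and Il11ra1 had no peak. Among ligands, Ctf1, the gene of cardiotrophin 1, had 1 peak 1.15 kb upstream of its TSS (fold 9.85, 21 fragments, 2 cores). Clcf1 had 1 peak in its own intron 4.76 kb downstream of its TSS (fold 8.55, 2 cores), and Il31 had 1 peak in an intron of Mlxip (fold 5.93, 1 core). Il11, Cntf, Ctf2 and Ebi3, whose product joins p28 in IL-27, had no peak. The median domain of these receptor genes was 76.3 kb and that of the ligand genes 20.3 kb. A peak was present in 40.1% of all genes with domains of 50 to 100 kb and 26.7% of those under 25 kb.

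Below the receptors, 12 of 13 signalling genes had a peak, where 43.1% of all genes and 50.5% of genes with domains of 100 to 200 kb did, and only the adaptor gene Gab1 had none. The strongest peaks were those of Ptpn11, which encodes the phosphatase SHP2 (fold 19.96, 50 fragments, 90.3 kb downstream of the TSS), and Adam10, a sheddase gene (fold 19.4, in a Lipc intron 155 kb downstream). Next came Cish, a SOCS family inhibitor gene with 8 peaks in a domain of 44.6 kb (best fold 17.6), and Stat3, the main STAT of the pathway, with a peak of 17.2 in its own intron. Further genes of the list were named after their values were seen. Socs3 had a peak of fold 12.2 at 6.20 kb upstream of its TSS with 2 cores. Adam17, which sheds the IL-6 receptor, had a peak of fold 10.29 at 0.558 kb upstream with 3 cores. Among the kinases Jak1 had 5 peaks (best fold 14.6), Jak2 had 5 (12.5) and Tyk2 had 1 (11.2). The strongest peaks of Cish and Jak1 held no core. Those of Ptpn11 and Stat3 held 4 and 3, and those of Adam10, Jak2 and Tyk2 held 1 each. The median domain of the signalling genes was 184.5 kb, longer than that of the receptor or ligand genes listed before them. Ptpn11 and Il31 lie on chromosome 5 beyond 110 Mb, where the list held 1.68 peaks per 100 kb with a median NIS background of 0.594, against 0.502 and 0.333 on the other autosomal sequence. The part of that difference in their peaks was not tested.

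**Figure D5:**
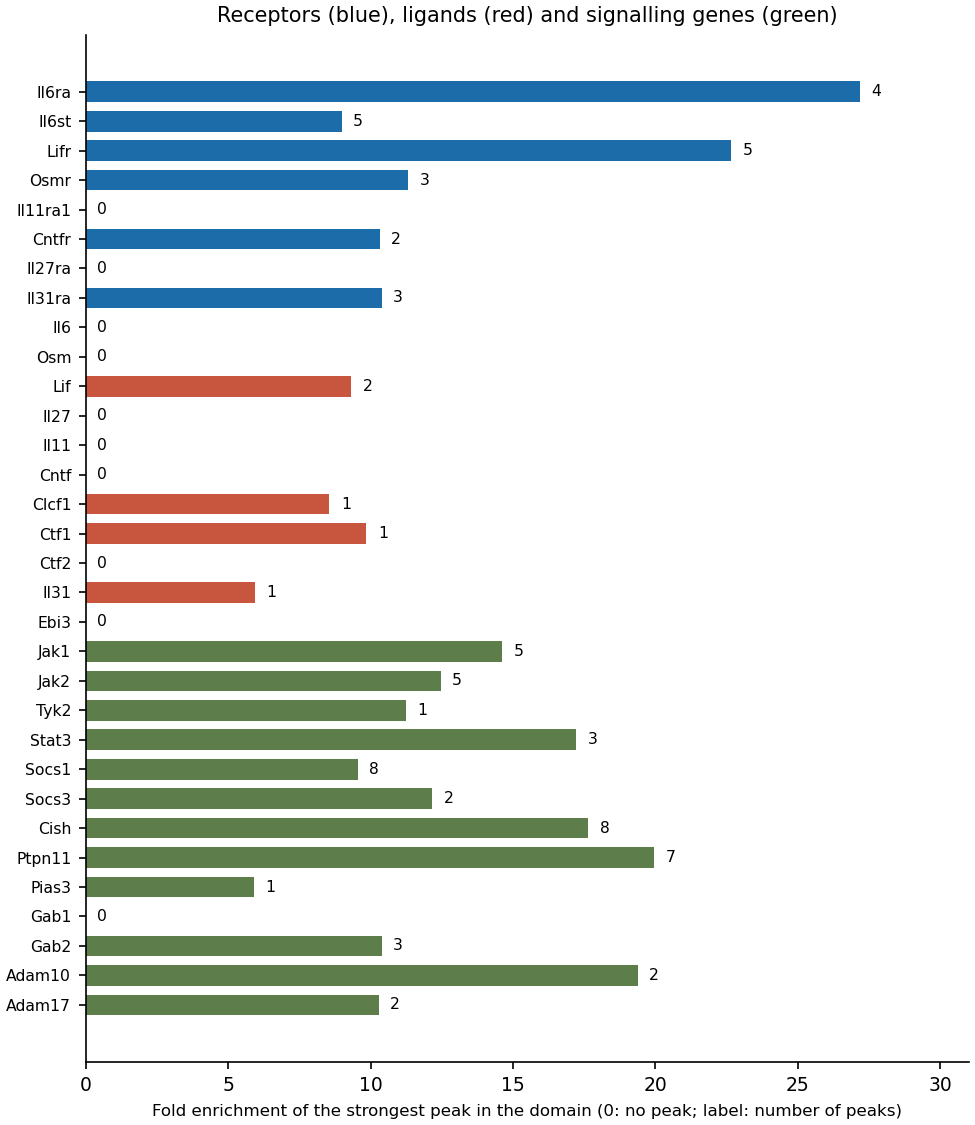
Fold enrichment of the strongest peak in the domain of each receptor gene (blue), ligand gene (red) and signalling gene (green), with the number of peaks beside each bar and no bar for a gene without a peak. The 2 longest bars are Il6ra (27.2) and Lifr (22.7), no ligand bar exceeds 9.85, and 12 of the 13 signalling genes have a bar.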

How the data were processed

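ChIP-seq libraries from D1 cells, 3 Runx3 IP and 2 NIS IP, were grouped by their titles. The submitters' processing notes name CASAVA 1.8, Bowtie 1, MACS2 2.0.10 and mm9, and by the study's methods reads were aligned uniquely with Bowtie and peaks were called with MACS2. The authors called 1 list from 1 Runx3 and 1 NIS alignment. Which libraries each pools is not given in the sources used here, so depth per library is unknown. Per the file headers, 8689867 of 12078978 Runx3 tags and 4946605 of 7110481 NIS tags remained with 1 tag kept per position, and the q cutoff was 0.05. Removing duplicates limits summit height, and unique alignment leaves repeats without peaks.

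The deposited signal is the pileup, the Runx3 fragments at the summit after scaling to the NIS depth. Dividing by 0.569, the value of 1 fragment, gave fragments within 0.00872 of whole numbers. The deposited fold enrichment is a ratio, pileup plus 1 over NIS background plus 1, and gave the background. The deposited −log10 q column had an unreadable header and was identified by position and values.

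Sequence and annotation were of the same build (NCBIM37, GENCODE vM1). Of 22367 protein-coding models, 22225 genes remained after the longest was kept per name, each with its outermost TSS. Domains followed the GREAT tool, as in the study. Motifs were searched within 100 bp of summits. Poisson and Wilson intervals cover counting error only, and PCR copies are not independent molecules. All 8 members were named, other family genes with a peak, and the 4 signalling genes of highest fold. A few genes and 1 peak beside a member are not reported here, and the lists are counted without those genes. Members and lists were chosen with earlier results of these data known. No significance test was run, because the peaks chose the genes. Assignment and motif search were tested on simulated data. Software was Python 3.11.15 with pandas 2.3.3, NumPy 2.4.6, SciPy 1.17.1, pysam 0.24.0 and matplotlib 3.10.9. Alternatives changed peak thresholds, domain limits, peak assignment and the motif window.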

Additional observations from a re-analysis of the deposited data

How the results depend on the processing

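Receptor genes had more peaks than ligand genes under the 8 alternatives to the domain and peak rules that were planned. With peaks of fold 10 or more, receptor domains held 5 peaks (0.451 per 100 kb) in 3 genes and ligand domains 0 peaks (0 per 100 kb) in 0 genes. The main rule gave 14 and 2 peaks, and 28.7% of all peaks had a fold of 10 or more. With the stretch from 5 kb upstream to 1 kb downstream of the TSS alone, receptors held 1 peak (4.17 per 100 kb) in 1 gene, the promoter peak of Il6ra, and ligands 0 peaks (0 per 100 kb) in 0 genes. When genes of every biotype limited the domains, Lif lost its peaks, and ligands had 0 peaks (0 per 100 kb) in 0 genes. Ligand domains held 1 peak with the nearest TSS only, 1 peak with extension up to 100 kb, and 1 peak (0.175 per 100 kb) with peaks whose NIS background was under 2 times the average. With summits within 25 kb of the TSS, added after the data were seen, 2 receptor genes had 4 peaks and 1 ligand gene had 2. Within 100 kb, ligands had 5 peaks in 2 genes. Within 250 kb, Osm also had peaks, some of them in common with Lif, and the counts of receptor and ligand genes overlapped. A −log10 q of 5 or more and any overlap with the domain moved no group count by more than 1.5 times.

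The share of member peaks with a RUNX core was 62.5% to 80.0% in all alternatives. The highest value, 80.0%, rests on only the 5 member peaks with a fold of 10 or more. Over all peaks the share was 56.8% within 50 bp, 70.2% within 200 bp, 52.6% with TGTGGT alone, 67.0% in peaks with −log10 q from 5 upwards and 76.1% in peaks with fold from 10 upwards. No paired analysis was possible because the deposited list holds no values per library, and for the same reason no library could be left out. The list does not show whether a gene without a peak lacks binding or lies below the cutoff at this depth.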

Other observations

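The arrangement of RUNX cores was examined after the sequences had been seen. The Lifr peak at 87.7 kb and the stronger Lif peak each held a pair of cores whose starts were 11 bp apart, in the same orientation at Lifr and in opposite orientations at Lif. Such a distance occurred in 52 of 13014 peaks (0.40%).

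The 2 strongest peaks of the family, in the Il6ra intron and downstream of Lifr, shared a run of 14 bases, AACCACAGGAAAAC, which begins 1 base before a core. Within 100 bp of a summit this run was found at 2 peaks of the whole list, those of Il6ra and Lifr. Its inner part, the core with the 5 bases after it (ACCACAGGAAA), was found at 35 peaks (0.269%), of which 2 belong to the family. The run was picked as the longest one the 2 peaks share, so its rarity in the list is no evidence of a common role.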
